A study of Arabidopsis thaliana with 10 samples.

Results

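The glucosinolate genes described here are 52 loci of Arabidopsis thaliana, chosen by name for their place in the pathway: chain elongation, core and side-chain enzymes of aliphatic and indolic glucosinolates, their MYB regulators, carriers, myrosinases and specifier proteins. They were chosen with earlier results of these data known. Of the 52 loci, 51 had a value among the 23615 genes listed in each library, and 49 reached 1 FPKM in at least 1 library, against 18858 of all listed genes. AOP2 (AT4G03060), a side-chain dioxygenase gene, was not analysed here. MAM3, CYP81F2 and IGMT1 passed that minimum through the library labelled atx1 II alone, and AOP3 and MYB122 did not pass it.

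RNA-seq was given for inflorescence stems that had reached 20 cm, grown under long days. There was 1 library each of the atx1 mutant at segment II (5 to 7 cm from the top) and of the wild type (WT, accession Col) at segments I (0 to 3 cm), II (5 to 7 cm) and III (10 to 12 cm). ATX1 encodes a methyltransferase acting on lysine 4 of histone H3, and which atx1 allele was used is not given in the labels. The 6 other samples of the series, H3K4me3 chromatin immunoprecipitation and input DNA, were not analysed here.

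Glucosinolates are sulfur-rich thioglucosides by which plants of the cabbage order deter herbivores and microbes. Aliphatic ones in this species are built from methionine, whose side chain is first lengthened in a cycle resembling leucine synthesis, and indolic ones from tryptophan. The amino acid is turned into an aldoxime, sulfur is brought in from glutathione, and a glucose and a sulfate are added, after which the side chain may be oxidised, hydroxylated or methylated. Myrosinases, thioglucosidases kept apart from their substrate until tissue is damaged, release products whose nature specifier proteins steer. In stems the compounds are known to gather in cells beside the phloem, and classical myrosinases in phloem myrosin cells and in guard cells.

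Levels are given in FPKM (fragments per kilobase of a transcript, set relative to the sequencing depth), and a difference is always one of log2(FPKM + 1). Past 2-fold, a difference of 1 or more on that scale, a gene is called higher or lower, and the scale understates differences of low genes. With 1 library per group there is no replicate, no error and no test, so every value describes these libraries. The mutant library is called the library labelled atx1 II, because ATX1 (AT2G31650) was at 21.8 FPKM there, against 4.02 in WT I, 6.09 in WT II and 3.54 in WT III. The level of the targeted gene thus did not bear out the label, and each direction drawn from that library rests on the label. The files give 1 value per gene, so the part of the ATX1 transcript behind it is not known. Estimated depth was 18900000 to 20300000 fragments per library.

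Along the wild-type stem many genes of synthesis were higher in the older segments, while carriers, myrosinases and specifier proteins, apart from NSP1, stayed within 2-fold at each step. In WT II against WT I, 25 of the 51 members with a value were higher and 0 lower, where 9.88% of all measured genes were higher and 16.1% lower. In WT III against WT II, 18 were higher and 0 lower, against 2.85% and 2.35% of all measured genes. The split of all measured genes was 538 higher and 444 lower there, and 321 and 725 under median-of-ratios scaling. WT III against WT I gave 32 higher and 0 lower, with 12.0% and 12.4% of all measured genes. The library labelled atx1 II had 25 members higher and 3 lower than WT II, where 14.1% of all measured genes were higher and 8.33% lower. That split, 2665 and 1570 genes, was 1731 and 2213 under median-of-ratios scaling. The counts of higher members include CYP79F2, listed at 0 in WT I, and MAM3, listed at 0 in WT I and WT II. That of the library labelled atx1 II also includes CYP81F2 and IGMT1, which like MAM3 reached 1 FPKM only there. These comparisons share libraries, WT II being part of 3 of the 4, so their counts are not independent. Median differences over the 49 measured members were 1.07, 0.57, 1.83 and 1.09 in the same order, beside -0.13, 0.19, 0.01 and 0.28 over all measured genes.

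In bulk stem, fewer cells of a type and less RNA per cell cannot be told apart. Summed over 7 phloem markers the level was 1602 FPKM in the library labelled atx1 II, and 247, 951 and 616 in WT I, II and III. None was listed at 0. In WT II 4 of 7 were higher than in WT I, beside 9.88% of all measured genes. SWEET11 and SWEET12, sugar exporters of the phloem, made up much of the sum, at 611 and 467 FPKM in the library labelled atx1 II. They were at 214 and 244 FPKM in WT II and at 58.7 and 69.9 in WT III. These were the 2 markers lower in WT III than WT II (-1.85 and -1.79), beside 2.35% of all measured genes. The 5 others were within 2-fold there. Between the library labelled atx1 II and WT II 1 of the 7 was higher, beside 14.1% of all measured genes. Of these 7 differences 4 were negative and the median was -0.06, beside 0.28 over all measured genes. The part of these markers in the counts above was not tested.

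**Figure D1:**
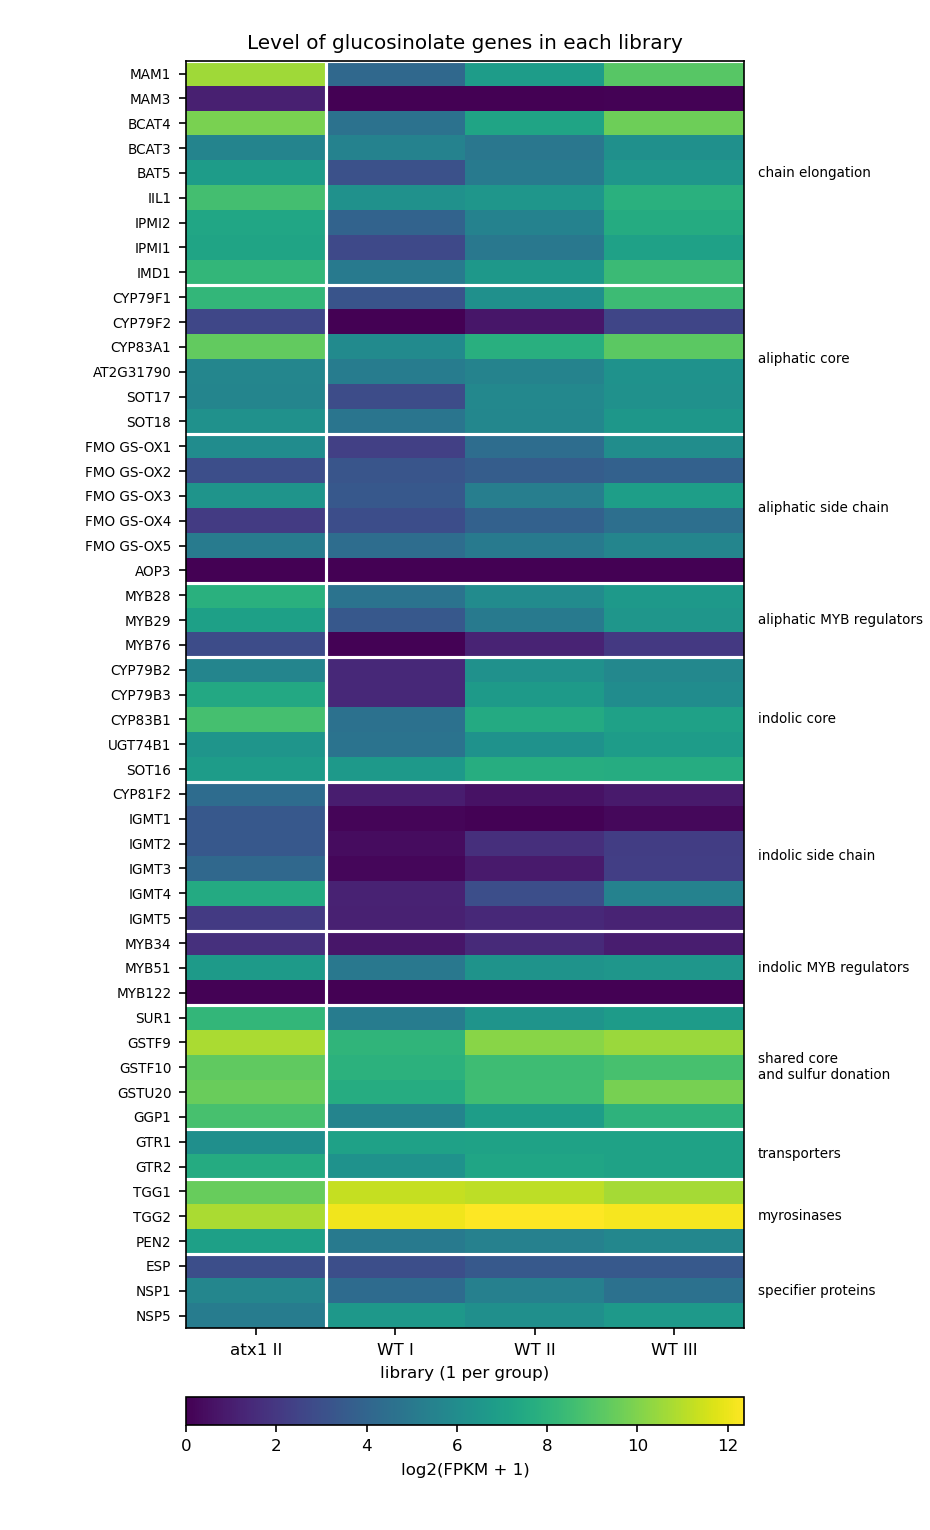
Level of each of the 51 glucosinolate genes with a value (rows, grouped by role) in the library labelled atx1 II and in WT I, II and III (columns, 1 library each), as log2(FPKM + 1) on the colour scale. The myrosinases TGG1 and TGG2 had the highest levels in WT I, and most chain elongation genes have a higher level in each older segment.

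Chain elongation genes had the largest median difference of the 11 roles between WT III and WT I, 3.45. In WT II, 6 of 9 were higher than in WT I, and in WT III 8 of 9 were higher than in WT II. BCAT4 (AT3G19710), the cytosolic aminotransferase that starts the cycle by deaminating methionine, was at 948 FPKM in the library labelled atx1 II and at 24.3 in WT I, 147 in WT II and 796 in WT III. Its levels thus rank with the segments, and the difference was 2.55 at the upper step and 2.43 at the lower one. MAM1 (AT5G23010), the methylthioalkylmalate synthase that adds a carbon, was at 1571 FPKM in the library labelled atx1 II, and at 17.0, 114 and 562 in WT I, II and III. This was the largest member level outside the myrosinases and glutathione transferases in that library, and MAM1 differed there by 3.78 from WT II and by 1.48 from WT III. Its neighbour MAM3 (AT5G23020, listed as IMS2), a synthase that accepts longer chains, was at 1.13 FPKM in the library labelled atx1 II, listed at 0 in WT I and WT II, and at 0.06 in WT III.

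The carbon skeleton is then isomerised and decarboxylated inside the plastid. BAT5 (AT4G12030), a plastid envelope carrier of the keto acids, was at 112 FPKM in the library labelled atx1 II, and at 7.29 in WT I, 33.05 in WT II and 89.5 in WT III. The small isomerase subunit IPMI1 (AT3G58990) was at 149 FPKM in the library labelled atx1 II, and at 5.59, 30.1 and 132 in WT I, II and III. For IPMI2 (AT2G43100), the other small subunit of elongation, the levels were 159.96 in the library labelled atx1 II and 14.1, 43.05 and 193 along the wild-type stem. All 3 genes were higher at both steps, by 1.55 to 2.24 in WT II against WT I and by 1.41 to 2.14 in WT III against WT II. IMD1 (AT5G14200), an isopropylmalate dehydrogenase of the cycle, was at 286 FPKM in the library labelled atx1 II, and at 32.15, 95.6 and 345 in WT I, II and III.

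The genes shared with branched-chain amino acid synthesis were flatter at the top. IIL1 (AT4G13430), the large isomerase subunit that also serves leucine synthesis, was at 406 FPKM in the library labelled atx1 II and at 74.5 in WT I, 90.5 in WT II and 228 in WT III. BCAT3 (AT3G49680), a plastid aminotransferase of both routes, was at 47.25 FPKM in the library labelled atx1 II, and at 43.3, 28.75 and 72.3 in the wild-type series. Both were within 2-fold in WT II against WT I (0.28 and -0.57) and higher in WT III than WT II (1.32 and 1.30). The leucine synthesis genes IPMS1, IPMS2 and IPMI SSU1, taken as a contrast, had 0 of 3 higher in WT II than WT I and 0 of 3 higher in WT III than WT II, where their medians were -0.86 and 0.30. IPMS1 was at 39.65 FPKM in the library labelled atx1 II, against 13.0 in WT II, the 1 of the 3 past 2-fold. IMD2 and IMD3, counted here with other genes of the pathway, were lower in WT II than WT I (-1.47 and -1.85). IMD1 was higher there (1.54).

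**Figure D2:**
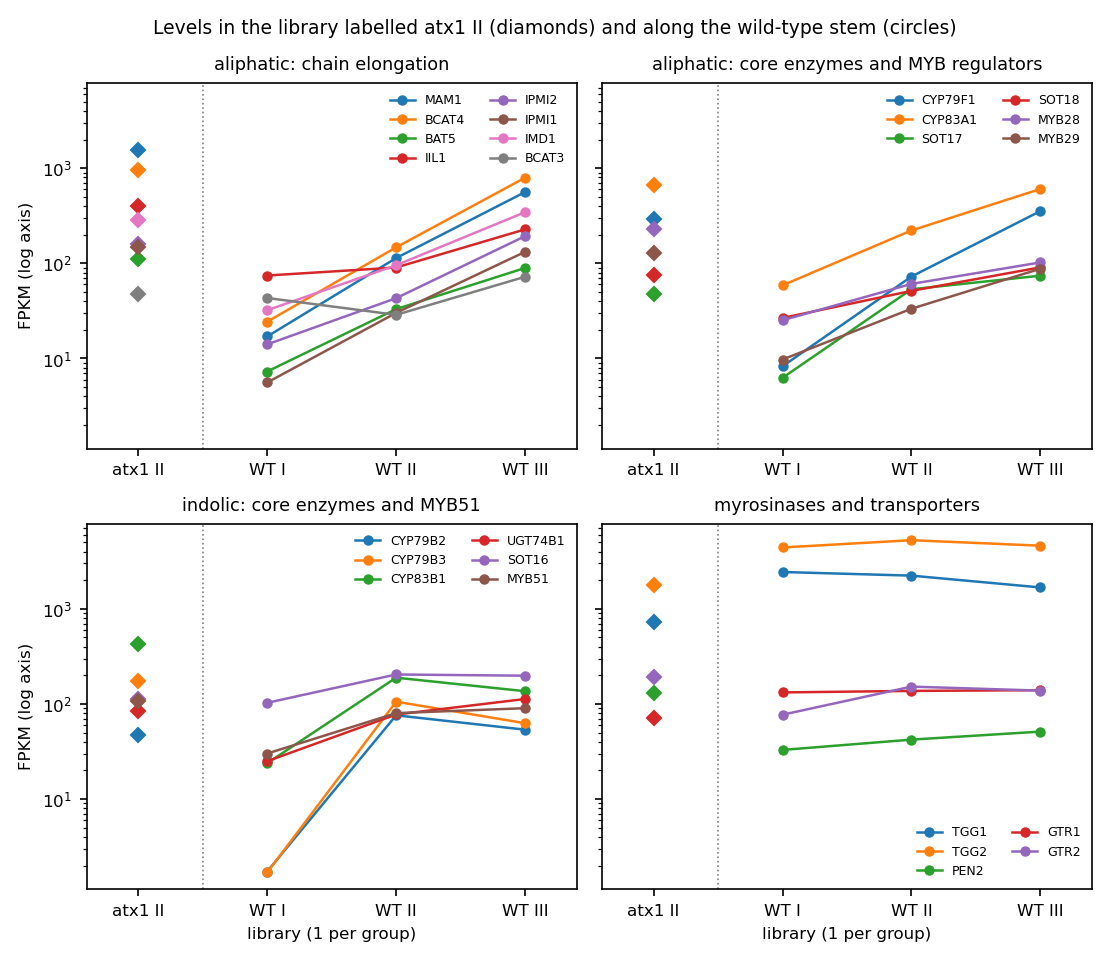
FPKM on a log axis in the library labelled atx1 II (diamonds) and in WT I, II and III (circles joined by lines), 1 library each, for genes of chain elongation, aliphatic core and regulators, indolic core and MYB51, and myrosinases with carriers. In the aliphatic panels every line but that of BCAT3 climbs at both steps, CYP79B2, CYP79B3 and CYP83B1 climb from WT I to WT II only, and TGG1 and TGG2 lie lower in the library labelled atx1 II than in any wild-type segment.

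Core enzymes of the aliphatic branch followed. CYP79F1 (AT1G16410), the cytochrome P450 that commits elongated methionine to the pathway, was at 295 FPKM in the library labelled atx1 II, and at 8.27 in WT I, 72.7 in WT II and 355 in WT III. It had the largest WT III against WT I difference among the 51 members, 5.26. The adjacent CYP79F2 (AT1G16400), which handles long-chain substrates, was at 5.12 FPKM in the library labelled atx1 II, listed at 0 in WT I, and at 0.67 in WT II and 5.0 in WT III. The next P450, CYP83A1 (AT4G13770), was the most abundant of the group at 663 FPKM in the library labelled atx1 II, and at 58.8, 222 and 606 in WT I, II and III. All 3 P450 genes lay within 2-fold between the library labelled atx1 II and WT III, at differences of -0.27 to 0.13.

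The last core steps differed less at the lower step. SOT17 (AT1G18590), a sulfotransferase of desulfo-glucosinolates, was at 47.9 FPKM in the library labelled atx1 II, and at 6.26 in WT I, 53.4 in WT II and 74.2 in WT III. Its paralog SOT18 (AT1G74090) was at 76.3 FPKM in the library labelled atx1 II, and at 26.65, 51.4 and 90.9 along the wild-type stem. AT2G31790, listed without a gene name, was at 49.4 FPKM in the library labelled atx1 II, and at 35.9, 45.9 and 79.3 in the same series. None of these 3 differed by 2-fold between WT III and WT II or between the library labelled atx1 II and WT II, whereas the 3 P450 genes did in both. Over the 6 core genes the WT III against WT II median was 1.13, with 0.93 under median-of-ratios scaling and 0.98 under upper-quartile scaling, other ways of matching the libraries. In the library labelled atx1 II against WT II the median was 1.07, with 0.79 and 0.86 under those scalings.

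Side-chain oxidation split by gene. The FMO GS-OX enzymes are flavin monooxygenases that oxidise the sulfur of the side chain. FMO GS-OX1 (AT1G65860) was at 63.0 FPKM in the library labelled atx1 II, and at 4.08, 20.3 and 65.1 in WT I, II and III. FMO GS-OX3 (AT1G62560) was at 83.2 FPKM in the library labelled atx1 II, and at 9.72, 38.1 and 119 in the wild-type series, so both were higher in each older segment, and higher in the library labelled atx1 II than WT II. The difference of FMO GS-OX3 between the library labelled atx1 II and WT II, 1.11, was 0.84 under median-of-ratios scaling and 0.90 under upper-quartile scaling. FMO GS-OX4 (AT1G62570) went the other way in that library at 3.45 FPKM, against 13.1 in WT II, with 6.52 in WT I and 22.2 in WT III. It was the only aliphatic member lower by 2-fold there (-1.66), although it lies next to FMO GS-OX3 in the genome.

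The remaining side-chain genes were within 2-fold in each comparison but 1. FMO GS-OX5 (AT1G12140) was at 33.8 FPKM in the library labelled atx1 II, and at 20.35, 31.6 and 48.4 in WT I, II and III. It was higher in WT III than WT I (1.21), the 1 call among these genes. FMO GS-OX2 (AT1G62540) was at 6.77 FPKM in the library labelled atx1 II, and at 8.66, 11.5 and 13.2 in the same segments. AOP3 (AT4G03050), a dioxygenase of side-chain hydroxylation, was listed at 0.03 FPKM in WT II and at 0 elsewhere. Over the 5 measured side-chain genes the WT II against WT I median was 0.91, and 1.06 under median-of-ratios scaling.

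The aliphatic regulators had higher levels in each older segment too. MYB28 (AT5G61420), the main activator of the aliphatic branch, was at 229 FPKM in the library labelled atx1 II, and at 25.2 in WT I, 60.8 in WT II and 102 in WT III. MYB29 (AT5G07690), which acts beside it, was at 129 FPKM in the library labelled atx1 II, and at 9.74, 33.3 and 87.9 along the wild-type stem. MYB76 (AT5G07700), the third member and the genomic neighbour of MYB29, was at 6.33 FPKM in the library labelled atx1 II and only 0.04, 1.36 and 3.08 in WT I, II and III. All 3 were higher in WT II than WT I, and again higher in the library labelled atx1 II than WT II (by 1.64 to 1.92), and 1 of the 3, MYB29, was higher in WT III than WT II. MYB28 was also higher in the library labelled atx1 II than in WT III, by 1.15.

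Of the 23 measured aliphatic genes and their regulators, all 23 had their highest wild-type level in WT III, as did 38.7% of all measured genes. Among them is MAM3, at only 0.06 FPKM in WT III and listed at 0 in WT I and WT II. FMO GS-OX2 differed little, at 13.2 FPKM in WT III against 11.5 in WT II. Under median-of-ratios scaling it was 22 of the 23, and under upper-quartile scaling 23. Over all members the highest wild-type level was in WT III for 37 of 49, in WT II for 9 and in WT I for 2, where WT II held it for 16.9% and WT I for 44.1% of all measured genes, and 1 member shared it. Under median-of-ratios scaling these counts were 34, 14 and 1, and under upper-quartile scaling 35, 11 and 3.

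The indolic core had another profile, higher in WT II than WT I and then level. CYP79B2 (AT4G39950), a P450 that makes indole-3-acetaldoxime from tryptophan, was at 47.7 FPKM in the library labelled atx1 II, and at 1.73 in WT I, 76.0 in WT II and 53.6 in WT III. CYP79B3 (AT2G22330), which catalyses the same step, was at 175 FPKM in the library labelled atx1 II, and at 1.69, 106 and 62.7 in the wild-type series. These were the largest member differences of WT II against WT I, 4.82 and 5.31, with both genes under 2 FPKM in the top segment. CYP83B1 (AT4G31500), the next P450, was at 426 FPKM in the library labelled atx1 II, and at 23.8, 189 and 136 in WT I, II and III. It was the 1 of the 5 core genes past 2-fold in the library labelled atx1 II against WT II (1.17), and this difference was 0.89 under median-of-ratios and 0.96 under upper-quartile scaling. The median of the 5 was 0.14 there, with -0.14 and -0.07 under those scalings.

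Later genes of the indolic core were not as low in WT I. UGT74B1 (AT1G24100), the S-glucosyltransferase, was at 85.3 FPKM in the library labelled atx1 II, and at 25.0, 77.5 and 113 in WT I, II and III. SOT16 (AT1G74100), the sulfotransferase favouring indolic substrates, was at 112 FPKM in the library labelled atx1 II, and at 103, 204 and 198 along the wild-type stem. SOT16 lies next to SOT18 in the genome, and it differed by -0.04 between WT III and WT II while SOT18 differed by 0.81. Between the library labelled atx1 II and WT II SOT16 differed by -0.86, and under median-of-ratios (-1.14) and upper-quartile (-1.07) scaling it was lower past 2-fold. Of the 5 indolic core genes 0 were past 2-fold between WT III and WT II, and 4 of the 5 differences were negative. The wild-type maximum lay in WT II for 4 of the 5.

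Genes that modify the indole ring were mostly low in the wild type and higher in the library labelled atx1 II. CYP81F2 (AT5G57220), the P450 that hydroxylates the ring and is known for its part in defence, was at 19.5 FPKM in the library labelled atx1 II, against 0.97, 0.54 and 0.87 in WT I, II and III. All 3 wild-type values were under 1 FPKM, and the difference from WT II was 3.73. IGMT4 (AT1G21130), a methyltransferase that caps the new hydroxyl, was at 186 FPKM in the library labelled atx1 II, and at 1.25 in WT I, 6.78 in WT II and 43.0 in WT III. It showed the largest difference of the 51 members between the library labelled atx1 II and WT II (4.59).

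IGMT4 sits in a run of adjacent genes whose reads may be shared, so single values of the run are uncertain. IGMT1 (AT1G21100) was at 9.54 FPKM in the library labelled atx1 II, and at 0.11, 0.04 and 0.22 in WT I, II and III. IGMT2 (AT1G21120) was at 9.49 FPKM in the library labelled atx1 II and at 0.32, 2.16 and 3.68 in the wild-type series. Both were highest in the library labelled atx1 II. IGMT3 (AT1G21110) was at 17.0 FPKM there, and at 0.15, 0.86 and 3.92 in WT I, II and III. Summed over IGMT1 to IGMT4, the level was 222 FPKM in the library labelled atx1 II, and 1.83, 9.84 and 50.8 in WT I, II and III, so the order of the libraries holds for the run as a whole. IGMT4 made up 83.8% of that sum in the library labelled atx1 II, and 68.3%, 68.9% and 84.6% in WT I, II and III. IGMT5 (AT1G76790), a methyltransferase elsewhere on the chromosome that acts at another ring position, was at 3.24 FPKM in the library labelled atx1 II, and at 1.16, 1.65 and 1.36 in WT I, II and III. IGMT5 stayed within 2-fold of WT II (0.68), the 1 of the 6 ring genes to do so, and against WT III 5 of the 6 were again higher. CYP81F2 and IGMT1 are among these 5 and reached 1 FPKM only in the library labelled atx1 II, where they are high, so both counts are descriptions of the values above.

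Of the indolic regulators only MYB51 passed 2-fold in any of the 4 comparisons. MYB51 (AT1G18570), an activator of the indolic branch, was at 107 FPKM in the library labelled atx1 II, and at 30.1 in WT I, 80.1 in WT II and 90.25 in WT III. MYB34 (AT5G60890), another activator, was at 2.26 FPKM in the library labelled atx1 II, and at 0.69, 1.75 and 0.96 in the wild-type series. MYB122 (AT1G74080) was listed at 0.04 FPKM in the library labelled atx1 II and at 0 in WT I, II and III. MYB51 was higher in WT II than WT I (1.38), and in the library labelled atx1 II 0 of the 3 differed by 2-fold from WT II.

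Enzymes that serve both branches, grouped here with GSTU20 of the aliphatic step, were among the abundant members. GSTF9 (AT2G30860), a glutathione transferase placed at the sulfur-donating step, was at 1754 FPKM in the library labelled atx1 II, and at 272, 1153 and 1449 in WT I, II and III. The adjacent GSTF10 (AT2G30870) was at 639.72 FPKM in the library labelled atx1 II, and at 247, 365 and 429.9 in the same segments. Their reads may be shared, and GSTF9 was higher in WT II than WT I (2.08) while GSTF10 was within 2-fold (0.56). GSTU20 (AT1G78370), a transferase placed at the aliphatic step, was at 747 FPKM in the library labelled atx1 II, and at 198, 381 and 910.24 in WT I, II and III.

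Cleavage of the glutathione conjugate showed the same direction. GGP1 (AT4G30530), the peptidase that trims it, was at 429.61 FPKM in the library labelled atx1 II, and at 47.3, 117 and 251 in WT I, II and III. SUR1 (AT2G20610), the C-S lyase that frees the thiohydroximate and serves both branches, was at 286 FPKM in the library labelled atx1 II, and at 35.7, 83.9 and 111 along the wild-type stem. Of these 5 genes, GSTU20 included, 3 were higher in WT II than WT I, 2 in WT III against WT II, and 2 between the library labelled atx1 II and WT II. The 2 in WT III against WT II were GSTU20 (1.25) and GGP1, while SUR1, GSTF9 and GSTF10 differed by 0.24 to 0.40. In WT III against WT II the call of GGP1 (1.09) was lost under median-of-ratios (0.89) and upper-quartile (0.94) scaling.

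**Figure D3:**
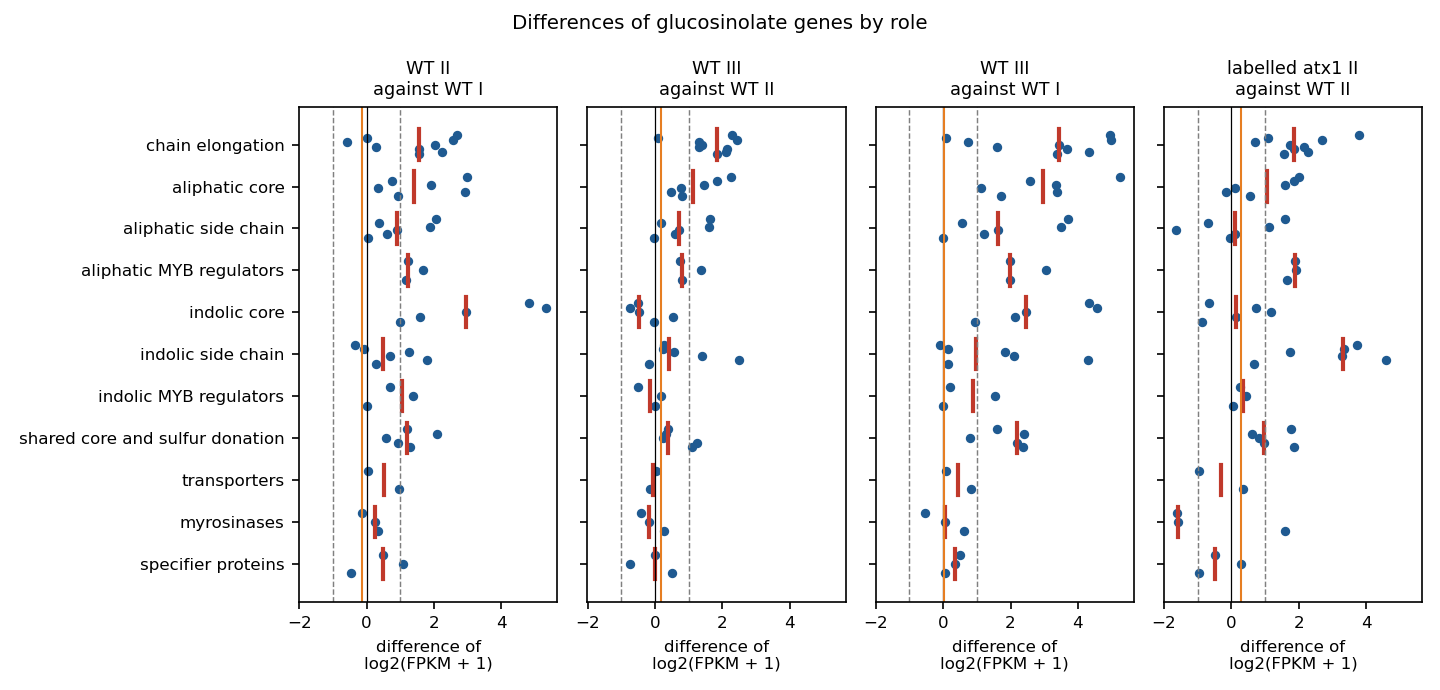
Differences of log2(FPKM + 1) for each of the 51 members with a value (blue points), by role (rows), in 4 comparisons of 1 library each. Red bars mark the median of a role over its measured members, the orange line the median of all measured genes and dashed lines 2-fold. The chain elongation median lies right of the orange line in every panel, although BCAT3 lies at -0.57 in WT II against WT I. The indolic core median is 2.94 and 2.47 against WT I but -0.47 and 0.14 in the other comparisons, the 0.14 being negative under the other scalings.

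The 2 carriers stayed within 2-fold in all 4 comparisons as deposited, and each passed it in 1 comparison under other scalings. GTR1 (AT3G47960) and GTR2 (AT5G62680) are plasma membrane importers that load glucosinolates into the phloem and hold them in storage cells. GTR1 was at 70.3 FPKM in the library labelled atx1 II, and at 132, 137 and 139.7 in WT I, II and III. GTR2 was at 192 FPKM in the library labelled atx1 II, and at 77.1, 152 and 138 in the wild-type series. The ratio of GTR1 to GTR2 within a library was 0.366 in the library labelled atx1 II, and 1.72, 0.902 and 1.01 in WT I, II and III. GTR1 against WT II (-0.95) passed 2-fold under median-of-ratios (-1.23) and upper-quartile (-1.16) scaling. In WT II against WT I the difference of GTR2 was 0.97, with 1.14 and 1.06 under those scalings.

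The classical myrosinases TGG1 and TGG2 were lower in the library labelled atx1 II. TGG2 (AT5G25980) was at 1763 FPKM there, and at 4419 in WT I, 5273 in WT II and 4615 in WT III. By level it was the gene of rank 17 among all listed genes in the library labelled atx1 II, and of rank 5, 5 and 2 in WT I, II and III. TGG1 (AT5G26000), a close paralog a few genes away, was at 728 FPKM in the library labelled atx1 II, and at 2441, 2236 and 1679 along the wild-type stem. Each stayed within 2-fold between wild-type segments, and both were lower in the library labelled atx1 II than in every wild-type library, by -1.62 and -1.58 against WT II and by -1.21 and -1.39 against WT III. PEN2 (AT2G44490), an atypical myrosinase that acts on indolic glucosinolates in living cells under attack, was at 129.64 FPKM in the library labelled atx1 II, and at 32.85, 42.2 and 51.2 in WT I, II and III. It was thus higher there by 1.60 against WT II, while TGG1 and TGG2 were lower. Over 5 guard cell markers the sum was 60.7 FPKM in the library labelled atx1 II, and 23.8, 33.5 and 50.9 in WT I, II and III. Only FAMA among them also acts in myrosin cells. KAT1, a guard cell potassium channel, was the 1 of the 5 past 2-fold between wild-type segments, at 1.68, 8.88 and 25.2 FPKM in WT I, II and III. Against WT II 3 of the 5 were higher in the library labelled atx1 II, where 14.1% of all measured genes were. FAMA (AT3G24140), the factor that makes both guard and myrosin cells, was at 18.3 FPKM in the library labelled atx1 II. Its levels were 15.7, 17.15 and 15.6 in the wild-type series, so TGG1 and TGG2 were lower in the library labelled atx1 II while FAMA was not. No marker of the list is particular to myrosin cells, so a difference in their number was not tested. None of the 5 was listed at 0 in any library.

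The specifier proteins varied without a common direction. NSP1 (AT3G16400), which turns myrosinase products toward nitriles, was at 49.7 FPKM in the library labelled atx1 II, and at 18.7 in WT I, 40.4 in WT II and 23.8 in WT III. NSP5 (AT5G48180), of the same nitrile-forming family, was at 35.1 FPKM in the library labelled atx1 II, and at 96.4, 69.9 and 99.0 in the wild-type series. ESP (AT1G54040), the epithiospecifier protein, was at 6.82 FPKM in the library labelled atx1 II, and at 6.79, 9.97 and 9.97 in WT I, II and III. NSP1 was the 1 of the 3 past 2-fold in WT II against WT I (1.07), and 0 of the 3 were past it in WT III against WT II. NSP5 in the library labelled atx1 II lay -0.97 from WT II, and -1.24 under median-of-ratios and -1.18 under upper-quartile scaling.

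Ratios taken inside 1 library do not depend on how libraries are scaled. At the entry of the branches, CYP79F1 and CYP79F2 together stood to CYP79B2 and CYP79B3 together as 1.35 in the library labelled atx1 II, and as 2.42, 0.404 and 3.09 in WT I, II and III. The aliphatic entry genes thus outweighed the indolic ones in every library but WT II. At the next step the ratio of CYP83A1 to CYP83B1 was 1.56 in the library labelled atx1 II, and 2.47, 1.17 and 4.45 in WT I, II and III, again lowest in WT II. MYB28, MYB29 and MYB76 together stood to MYB34, MYB51 and MYB122 as 3.32 in the library labelled atx1 II, and as 1.14, 1.17 and 2.12 in WT I, II and III. TGG1 and TGG2 together exceeded PEN2 by 19.2 times in the library labelled atx1 II, and by 209, 178 and 123 times in WT I, II and III.

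**Figure D4:**
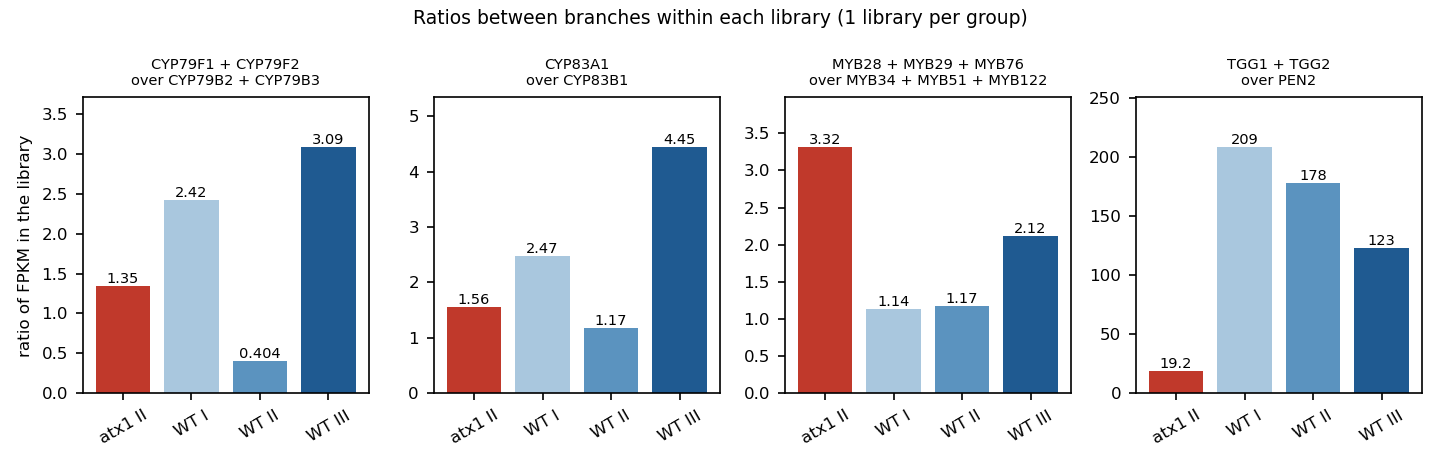
Ratios of FPKM within each library (bars from 0, 1 library each) for the library labelled atx1 II and WT I, II and III: the entry P450 genes, the second P450 genes, the MYB regulators (each aliphatic over indolic), and the classical myrosinases over PEN2. The entry ratio is lowest in WT II at 0.404 and the myrosinase ratio lowest in the library labelled atx1 II at 19.2.

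Much of the aliphatic difference between the library labelled atx1 II and WT II was absent against WT III. With WT III as the wild-type library, 13 members were higher and 4 lower, beside 9.62% and 9.04% of all measured genes. The median over the 49 measured members was 0.25, beside 0.09 over all measured genes. Of the aliphatic core 0 of 6 passed 2-fold (median -0.26), and of chain elongation 2 of 9 were higher, MAM1 and MAM3 (median 0.25). Against WT III too, 5 of 6 indolic ring genes were higher (median 1.98), as were MYB28, CYP83B1 (1.64), SUR1 (1.36) and PEN2 (1.32), while TGG1, TGG2 and FMO GS-OX4 (-2.38) were lower. CYP79B3 (1.47) and NSP1 (1.03) were higher and NSP5 (-1.47) lower against WT III but not against WT II. With WT I instead, 36 members were higher and 3 lower, where 19.8% and 17.6% of all measured genes were. The members higher against WT III and against WT I include MAM3, CYP81F2 and IGMT1. These genes reached 1 FPKM only in the library labelled atx1 II, so their calls only describe their values.

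Other genes of the pathway, 25 with a value of 29 taken, had calls in both directions. In WT II against WT I 5 were higher and 5 lower, where 9.88% and 16.1% of all measured genes were. WT III against WT II gave 3 and 1, beside 2.85% and 2.35%. WT III against WT I gave 6 and 5, beside 12.0% and 12.4%. The lower genes of both comparisons with WT I were IMD2, IMD3, BGLU28, NSP4 and ESM1. BGLU28 and NSP4 reached 1 FPKM only in WT I, so their calls only describe their values. The library labelled atx1 II against WT II gave 6 and 4, beside 14.1% and 8.33%. Of the 25, 19 reached 1 FPKM in at least 1 library. CYP81F4, MYC2, TGG4 and TGG5 were not analysed here. APK2 (AT4G39940, listed as AKN2), an adenylyl-sulfate kinase whose product feeds the sulfotransferases, was at 170.39 FPKM in the library labelled atx1 II, and at 10.6, 124 and 206 in WT I, II and III. Its paralog APK1 (AT2G14750) was at 118 FPKM in the library labelled atx1 II, and at 14.0, 62.5 and 152 in the same segments. Both were highest in WT III within the wild type, as the aliphatic genes were. NRT1.9 (AT1G18880), of the same carrier family as GTR1 and GTR2, was at 47.85 FPKM in the library labelled atx1 II, and at 6.61, 51.0 and 54.8 in WT I, II and III. AT2G25450, listed without a gene name, was at 876 FPKM in the library labelled atx1 II, and at 19.35, 148 and 168 in the wild-type series.

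The largest of these differences in the library labelled atx1 II were downward. SDI1 (AT5G48850), a gene induced by sulfur shortage that represses aliphatic glucosinolate synthesis, was at 0.69 FPKM there, against 32.4, 19.1 and 64.4 in WT I, II and III. AT1G04770, listed without a gene name, was at 7.85 FPKM in the library labelled atx1 II, and at 78.9, 83.2 and 149 in the wild-type series. Both were lower than in every wild-type library, by -3.57 and -3.25 against WT II. ESM1 (AT3G14210), a modifier of the hydrolysis products, was at 0.3 FPKM in the library labelled atx1 II, and at 19.9 in WT I, 2.92 in WT II and listed at 0 in WT III, the reverse of the synthesis genes along the stem.

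Tryptophan synthesis, which supplies the indolic branch, had 1 of 8 genes higher in WT II than WT I and 0 in WT III against WT II. In the library labelled atx1 II against WT II 4 of 8 were higher (median 1.38). Over all measured genes the shares higher were 9.88%, 2.85% and 14.1%, and the last median was 0.28. ASA1 (AT5G05730), the anthranilate synthase alpha subunit at the entry of the route, was the 1 higher in WT II, at 25.4 FPKM against 10.95 in WT I. TSA1 (AT3G54640), tryptophan synthase alpha, was at 94.6 FPKM in the library labelled atx1 II, and at 21.8, 22.9 and 27.8 in WT I, II and III. TSB1 (AT5G54810), the beta subunit, was at 196 FPKM in the library labelled atx1 II, and at 43.5, 53.6 and 50.6 in the same segments. AT2G04400, listed without a gene name, was at 86.7 FPKM in the library labelled atx1 II, against 19.6 in WT II. PAI1 (AT1G07780) was the 1 of the 8 with a negative difference from WT II there (-0.65). It was at 25.0 FPKM in the library labelled atx1 II, and at 37.4, 40.0 and 30.95 in WT I, II and III.

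**Figure D5:**
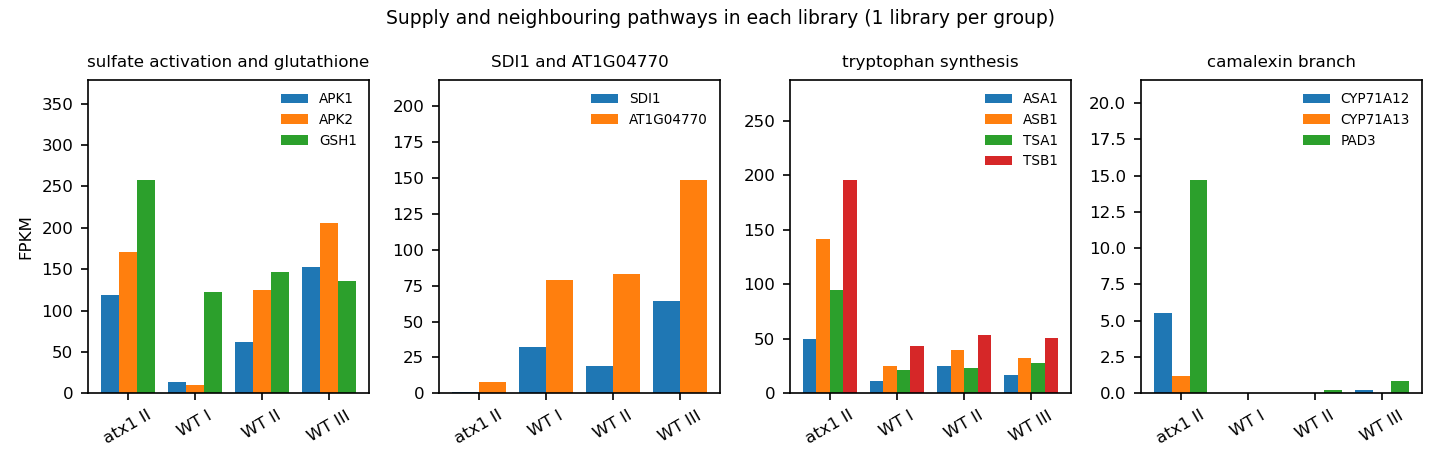
FPKM (bars from 0, 1 library each) in the library labelled atx1 II and in WT I, II and III for genes of sulfate activation and glutathione, SDI1 with AT1G04770, tryptophan synthesis and the camalexin branch. SDI1 is at 0.69 FPKM in the library labelled atx1 II. The camalexin bars and those of ASA1, ASB1, TSA1 and TSB1 are highest there, while PAI1 of the tryptophan list, not drawn, is lowest there.

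Markers of cell types and of other conditions also differed between the libraries, and their part in the results on glucosinolate genes was not tested. The 5 epidermal markers summed to 89.6 FPKM in the library labelled atx1 II, and to 195, 106 and 102 in WT I, II and III, with PDF1 at 0 FPKM in the library labelled atx1 II and at 42.9, 0.04 and 0 in the wild-type series. Cambium markers, 3 genes, summed to 54.5 FPKM in the library labelled atx1 II, and to 75.6, 72.3 and 108 in WT I, II and III.

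Fibre and xylem markers, 7 genes of the secondary wall, summed to 559.6 FPKM in the library labelled atx1 II, and to 278, 1981 and 2126 in WT I, II and III. The 6 jasmonate response genes summed to 779 FPKM in the library labelled atx1 II, and to 929.7, 369 and 159 in WT I, II and III, and PDF1.2 was at 144 FPKM in the library labelled atx1 II and listed at 0 in all 3 wild-type libraries. Against WT II 3 of these 6 were higher and 0 lower, beside 14.1% and 8.33% of all measured genes. PDF1.2, 1 of the 3, reached 1 FPKM only in the library labelled atx1 II, and VSP2, JAZ10 and AOS were within 2-fold. MYC3 (AT5G46760), a factor of jasmonate signalling that works with the MYB regulators, was at 99.6 FPKM there, against 43.85 in WT II. MYC4 (AT4G17880) was at 51.7 FPKM there and 31.0 in WT II, within 2-fold (0.72). The 3 morning clock genes summed to 231 FPKM in the library labelled atx1 II, and to 2.71, 6.35 and 3.73 in WT I, II and III. The 4 evening clock genes summed to 120.4 FPKM in the library labelled atx1 II, and to 112, 167 and 181 in WT I, II and III. Heat shock markers, 3 genes, summed to 3.93 FPKM in the library labelled atx1 II, and to 251, 190.2 and 367 in WT I, II and III.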

How the data were processed

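Per the file headers, the deposited values are FPKM per gene, given by the authors to 2 decimals, 1 library per group. Per the submitters' processing notes, Trimmomatic, HISAT, Bowtie2, RSEM and the build TAIR10 were used; how reads were divided between near-identical genes is not stated there, so values of close paralogs are uncertain. Of 23615 listed genes, 23238 matched locus tags of the assembly TAIR10.1, which gave names, gene order and the gene lengths used to estimate depth.

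Depth was estimated from steps of 1 fragment in genes of 250 to 900 bp under 1 FPKM: 18900000 fragments in the library labelled atx1 II, and 20300000, 19000000 and 19200000 in WT I, II and III. In these fits 70.4% to 72.2% of values lay within 0.15 of a whole number, where even spread gives 30%. The step and an offset taken from gene length, 120 to 150 bp, were fitted to the same values.

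Differences of log2(FPKM + 1) were taken on the whole table (Python 3.11.15, pandas 2.3.3), for genes with at least 1 FPKM in at least 1 library. They were called at 2-fold, with code tested on fold changes planted in a copy of the WT II values. Members and lists were chosen with earlier results of these data known. Every member with a value was named; of further lists, the 2 or 3 with the largest difference in a comparison among genes at 10 FPKM or more. MYC3, PEN3, ASA1, ASB1, PAI1, GSH1, CYP71A12 and CYP71A13 were named or plotted after their values were seen. So were IMD2, IMD3, BGLU28, NSP4, MYC4, VSP2, JAZ10 and AOS. Alternatives were other pseudocounts, minimum levels, scalings, fold thresholds and wild-type libraries.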

Additional observations from a re-analysis of the deposited data

How the results depend on the processing

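No paired analysis was possible because each group has 1 library. Median-of-ratios scaling shifted the median of all genes by 0.14, -0.17, -0.03 and -0.24 on the log2 scale in WT II against WT I, WT III against WT II, WT III against WT I, and last the library labelled atx1 II against WT II, and upper-quartile scaling by 0.08, -0.13, -0.05 and -0.18. At a 3-fold threshold 16 members were higher in WT II than WT I, against 25, where 4.49% of all measured genes were. Those higher in WT III than WT II numbered 10 at that threshold, against 18, beside 0.451%. Members lower in WT III than in WT II numbered 2 at a 1.5-fold threshold, against 0, where 7.16% of all measured genes were lower. For the library labelled atx1 II against WT II, lower members numbered 6 under median-of-ratios scaling and 6 under upper-quartile scaling, against 3. At a 1.5-fold threshold they numbered 8. The shares of all measured genes lower in these settings were 11.7%, 11.0% and 15.6%, near those of the members. Higher members numbered 13 with WT III in place of WT II, against 25, beside 9.62% of all measured genes. Against WT III the differences of IPMI2 (-0.27), IMD1 (-0.27), CYP79F1 (-0.27), FMO GS-OX1 (-0.05) and FMO GS-OX3 (-0.51) were negative, where against WT II they were positive.

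With a pseudocount of 0.1 in place of 1 the medians were 2.43 for the aliphatic core and 1.21 for the indolic side chain in WT II against WT I, and 1.12 for the aliphatic MYB regulators in WT III against WT II. In WT III against WT I that pseudocount gave 3.16 for the aliphatic MYB regulators, 1.89 for the indolic side chain and 1.0 for the indolic MYB regulators, and in the library labelled atx1 II against WT II 4.46 for the indolic side chain. Under median-of-ratios scaling the medians were 1.06 for the aliphatic side chain in WT II against WT I, 0.93 for the aliphatic core in WT III against WT II and 0.79 for it in the library labelled atx1 II against WT II; upper-quartile scaling gave 0.98 and 0.86 for the last pair. The pseudocount acts most on low genes, and the cause of the other shifts was not tested. In WT II against WT I, SOT18 (1.09), SOT16 (1.15), GSTU20 (1.11) and FMO GS-OX4 (1.06) passed 2-fold under median-of-ratios scaling and were within it as deposited. Filters on low values left each member count within 1.5 times. Depth limits precision most for members under 1 FPKM, such as IGMT1, AOP3 and MYB122 in the wild type.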

Other observations

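The camalexin branch leaves the indolic pathway at indole-3-acetaldoxime and makes an antimicrobial compound. Its 3 genes reached 1 FPKM only in the library labelled atx1 II, so their values are given without a count. PAD3 (AT3G26830), the last enzyme, was at 14.7 FPKM in the library labelled atx1 II, listed at 0 in WT I, and at 0.22 in WT II and 0.86 in WT III. CYP71A12 (AT2G30750) was at 5.56 FPKM in the library labelled atx1 II, listed at 0 in WT I and WT II, and at 0.23 in WT III. CYP71A13 (AT2G30770) was at 1.2 FPKM in the library labelled atx1 II and listed at 0 in the 3 wild-type libraries. CYP71A12 and CYP71A13 are close copies whose reads may be shared.

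Among members that lie next to each other in the genome, levels were unequal within a library. MAM1 was at 1571 FPKM in the library labelled atx1 II and MAM3 at 1.13, CYP79F1 at 295 and CYP79F2 at 5.12, and MYB29 at 129 and MYB76 at 6.33. In WT III these pairs stood at 562 and 0.06, 355 and 5.0, and 87.9 and 3.08. The ratio of CYP79B3 to CYP79B2, which catalyse the same step from different chromosomes, was 3.67 in the library labelled atx1 II, and 0.977, 1.39 and 1.17 in WT I, II and III. PEN3 (AT1G59870), a plasma membrane exporter tied to PEN2, was at 387 FPKM in the library labelled atx1 II, and at 94.3, 127 and 185 in WT I, II and III.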
